A study of Mus musculus with 20 samples.

Results

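The transcripts of 10 ADAM and ADAMTS protease genes (Adam8, Adam11, Adam12, Adam15, Adam19, Adam33, Adamts1, Adamts4, Adamts5 and Adamts8) were followed in the abdominal aortas of 20 mice. They were taken by name from the 43422 Ensembl genes listed for each mouse, and all 10 had a value above 0 in every mouse. The mice formed 4 groups of 5 (SD and n = 5 throughout): WT mice given saline, WT mice given angiotensin II (Ang II), mice lacking lysyl hydroxylase 1 (LH1, the collagen lysyl hydroxylase encoded by Plod1; Plod1-/-) given saline, and Plod1-/- mice given Ang II. All mice were C57BL/6 per the labels, and the methods name the substrain C57Bl/6NCrl for both genotypes. Ang II was delivered at 1000 ng/kg per minute, and both infusions ran for 14 days from a subcutaneous osmotic pump. The labels give an age of 6 months for all mice, and the methods describe male littermates from crosses of mice with a single Plod1 copy. The libraries came from whole tissue, so more cells of a type cannot be told apart from more RNA per cell, and p-values measure the spread between the 5 mice of a group.

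ADAM proteins are membrane-anchored proteases with a metalloprotease and a disintegrin domain. Their catalytically active members cut the extracellular part from growth factor precursors, cytokine receptors and adhesion molecules, a step called shedding. ADAMTS proteins are secreted relatives that carry thrombospondin-type repeats and bind the extracellular matrix, and several of them cut the large proteoglycans versican and aggrecan, which in the arterial wall affect its water content and the adhesion of cells.

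The start regions of 3 members are shown because these genes, whose levels moved in the comparisons described further on, differ in the sequence next to their start. The table of RefSeq promoters (GRCm38.p6) held 4 of the 10 members (Adam8, Adam15, Adam19 and Adamts1). The 250 bases before the start are printed from 5′ to 3′ on the strand of the gene, with matches to the searched motifs in capitals.
Adamts1, chr16:85803114-85803363, minus strand: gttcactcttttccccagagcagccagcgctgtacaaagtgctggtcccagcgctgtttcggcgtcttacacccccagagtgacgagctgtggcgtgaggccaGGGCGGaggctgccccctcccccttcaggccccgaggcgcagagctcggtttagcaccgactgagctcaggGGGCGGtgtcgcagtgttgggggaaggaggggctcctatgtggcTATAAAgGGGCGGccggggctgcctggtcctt
Adam8, chr7:139992563-139992812, minus strand: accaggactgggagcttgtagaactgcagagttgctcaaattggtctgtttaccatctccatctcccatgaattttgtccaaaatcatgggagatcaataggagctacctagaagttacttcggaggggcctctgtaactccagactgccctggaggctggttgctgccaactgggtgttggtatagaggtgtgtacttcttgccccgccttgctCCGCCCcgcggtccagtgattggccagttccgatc
Adam19, chr11:46055734-46055983, plus strand: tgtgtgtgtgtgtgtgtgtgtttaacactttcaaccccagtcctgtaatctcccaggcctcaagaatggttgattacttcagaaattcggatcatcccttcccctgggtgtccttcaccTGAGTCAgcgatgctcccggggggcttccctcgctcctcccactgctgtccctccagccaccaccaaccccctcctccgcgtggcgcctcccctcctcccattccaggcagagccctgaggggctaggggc
The motifs searched on both strands were the AP-1 motif TGACTCA, the CRE motif TGACGTCA, the EGR motif GCGTGGGCG, the GC box GGGCGG, the TATA box TATAAA and the CArG box. Adamts1 held a TATA box 32 to 27 bases before its start and 3 GC boxes, of which the nearest began 25 bases before the start, next to the TATA box, and no matches overlapped each other. Adam8 held a single GC box, read on the other strand, from 35 to 30 bases before its start, and no TATA box. Adam19 held an AP-1 motif, read on the other strand, from 131 to 125 bases before its start and no GC box. The table held 3 starts for Adam19, of which the one nearest to the annotated gene start is shown, and the regions before the other 2 held none of the motifs. Of 32851 promoters of the same length, 32.7% held the GC box, 12.4% the TATA box, 4.46% the AP-1 motif, 1.55% the CRE motif, 0.536% the EGR motif and 1.47% the CArG box. GC content was 65.6% for Adamts1, 60.0% for Adam19 and 52.8% for Adam8, beside a median of 52.4% over all promoters.

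Values are FPKM, fragments scaled by transcript length and by the size of the library, a level that can therefore be compared between genes. Relative depth, estimated from the spacing of values below 0.05 FPKM, ran from 0.903 to 1.09 times that of the median library. Plod1 lay between 22.8 and 29.7 FPKM in WT mice and at or below 0.0415 FPKM in Plod1-/- mice, as labelled. Of 8 smooth muscle markers, all were above 0 in every group, and the level ranged from Myocd, at a mean of 4.504 FPKM in saline-treated WT mice and 1.209 FPKM in Ang II-treated Plod1-/- mice, to Acta2 at a mean of 14040 FPKM in saline-treated WT mice and 5712 FPKM in Ang II-treated Plod1-/- mice. Mitochondrial genes took up to 29.1% of the FPKM sum in Ang II-treated WT mice. Xist, a transcript of female cells, stood at 15.1 FPKM in saline-treated Plod1-/- replicate 5 and reached 7.93 FPKM in replicate 1 of the Plod1-/- mice given Ang II, although the methods describe males only. The latter library also stood apart from its group in the sum of 8 smooth muscle markers, which was 16990 FPKM against 2327 to 6205 in the other 4 mice. Without both libraries that hold Xist, Adamts1 was not called between the Ang II-treated genotypes, and all other calls of the 10 genes were made as with them.

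In saline-treated WT mice, Adamts1 was the highest of the 10 transcripts and made up 59.9% of their summed level, with a mean of 117.9 ± 35.11 FPKM. Adam33 (25.04 ± 4.242) and Adam15 (23.7 ± 4.573) came next and overlapped each other, followed by Adamts8 (9.943 ± 2.424), Adam11 (8.541 ± 3.838) and Adamts5 (6.689 ± 1.124), each of which overlapped its neighbour in this order. Adam19 (2.822 ± 0.7407) and Adam8 (1.765 ± 0.6605) also overlapped, and Adamts4 (0.3013 ± 0.0394) and Adam12 (0.2887 ± 0.2074) were the lowest. The order was different after Ang II in Plod1-/- aortas, where Adam8 came next after Adamts1 at 44.33 ± 28.85 FPKM and Adam12 exceeded Adam33 at 8.735 ± 4.416 FPKM, while Adam11 was the lowest at 4.042 ± 1.728 FPKM. In that group every member overlapped its neighbour in the order, except that Adam15 (30.57 ± 7.676) did not overlap Adam19 (10.73 ± 4.762).

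**Figure D1:**
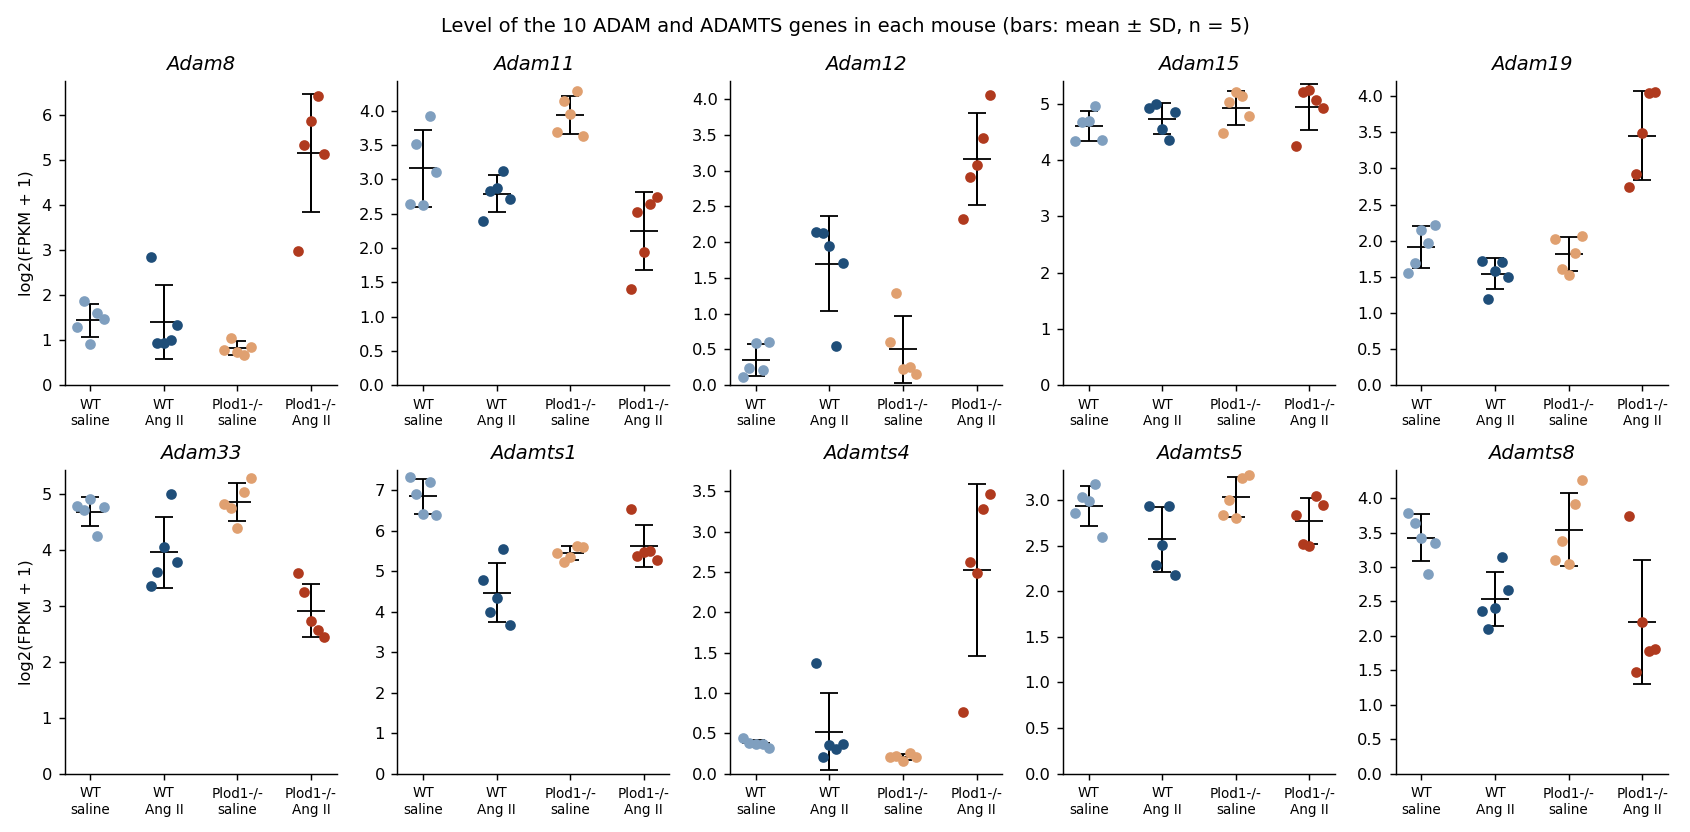
Level of each of the 10 genes as log2(FPKM + 1) on the vertical axis, with a point for each mouse in the 4 groups on the horizontal axis and bars for the mean ± SD (n = 5). Adam8, Adam12 and Adam19 in the 5 Ang II-treated Plod1-/- mice lie above all 5 Ang II-treated WT mice, and Adamts1 is highest in saline-treated WT mice (82.26 to 158.6 FPKM).

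limma was fitted on log2(FPKM + 1), so a fold change understates that of a low transcript. Genes were tested if they reached 1 FPKM in at least 5 mice of the comparison, and were called at a Benjamini-Hochberg adjusted p below 0.05 together with a log2 change above 1 in size. Between Plod1-/- and WT mice that both received Ang II, a comparison that asks how LH1 deficiency alters the aorta under Ang II, 5 of 10 members were higher (Adam8, Adamts4, Adam19, Adam12 and Adamts1) and 1 was lower (Adam33), where 7.45% of 12356 tested genes were higher and 3.67% lower. Adam8 and Adamts4 passed the filter there mainly through the group in which they were higher. The 2 groups did not overlap for 3 members (Adam8, Adam12 and Adam19), beside 15.1% of all tested genes. In WT mice, Ang II lowered 1 of 8 tested members (Adamts1) and raised none at these thresholds, where 2.28% of 11994 tested genes were lower and 6.38% higher. At an unadjusted p below 0.05 in limma no tested member was higher in that comparison. Adam12 and Adamts4 were below the filter there. The log2 difference of Adam12 was 1.345 (exact permutation test, two-sided unadjusted p = 0.0238). For Adamts1 alone the groups did not overlap, as for 17.3% of all tested genes. In Plod1-/- mice, Ang II raised 3 of 9 tested members (Adam8, Adam12 and Adam19) and lowered 3 (Adam11, Adam33 and Adamts8), where 8.38% of 12333 tested genes were higher and 5.51% lower. Of these 9, the groups did not overlap for 5, all but Adamts8 of the 6 called, beside 29.2% of all tested genes, and they did not overlap for Adamts4, which was below the filter. Adam8 and Adam12 passed the filter there through the group in which they were higher, with all 5 Ang II-treated mice and 1 saline-treated mouse at or above 1 FPKM. Between the saline-treated groups 1 of 8 tested members was lower in Plod1-/- mice (Adamts1) and none was higher (1, Adam11, at an unadjusted p below 0.05 in limma), where 0.408% of 11999 tested genes were lower and 0.358% higher, and of the 8 the groups did not overlap for this 1 member, beside 9.52% of all tested genes. They did not overlap either for Adamts4, which was below the filter. The difference between the Ang II responses of the 2 genotypes (the interaction) was called positive for 5 members and called negative for 2 of the 10. Of 13263 tested genes, 9.69% were called positive and 6.36% called negative. These comparisons share groups with each other, so their results are not independent. The 10 genes were chosen with earlier results of these data known, so their counts beside those of all genes are not a test of the family.

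The median log2 change over all tested genes was 0.117 between the Ang II-treated genotypes and 0.12 for the interaction, and -0.0437 and -0.0394 after quantile normalization. With this scaling the calls over all genes changed from 920 higher and 453 lower to 733 and 632 between the Ang II-treated genotypes, from 1034 and 680 to 887 and 880 for Ang II in Plod1-/- mice, and from 1285 and 844 to 981 and 1146 for the interaction. No called member changed direction under any scaling, and Adam12 lost its interaction call.

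**Figure D2:**
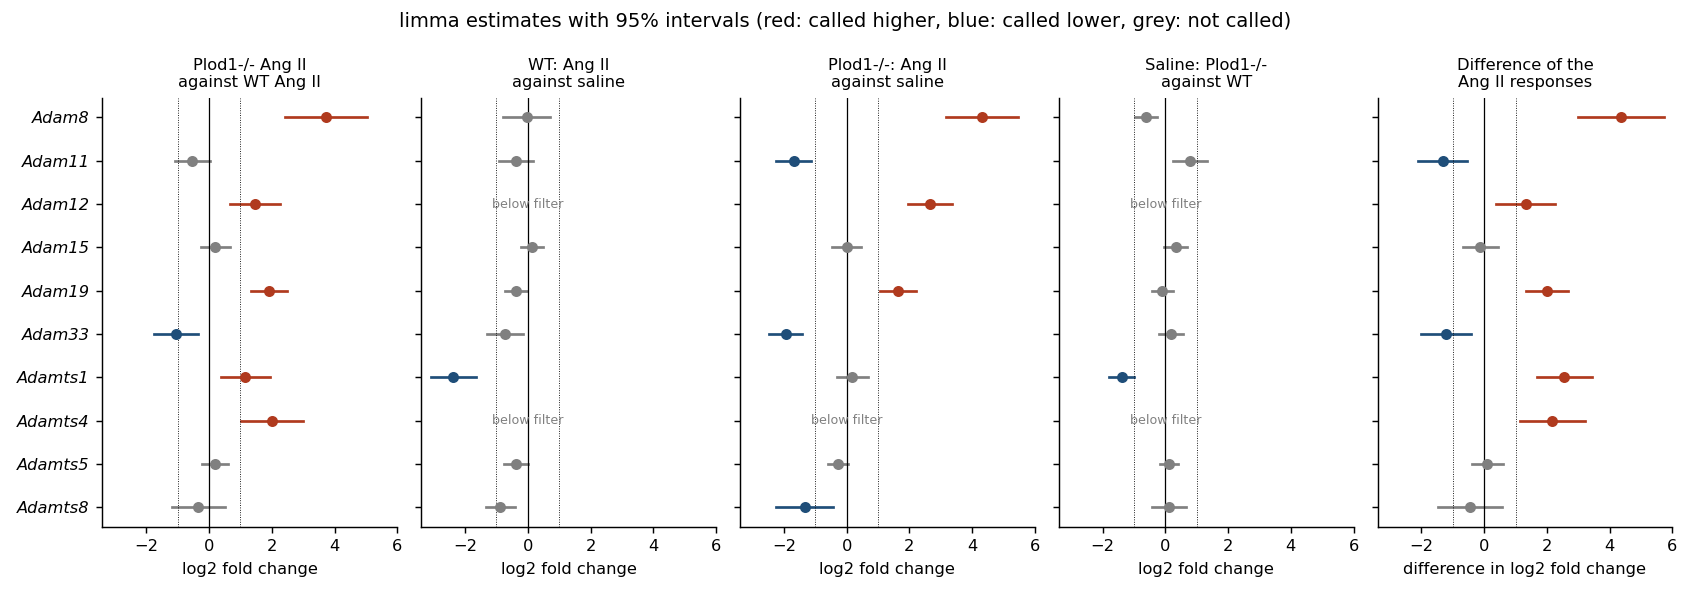
limma estimates for the 10 genes (vertical axis) in 4 comparisons and for the difference of the Ang II responses, as log2 fold change on the horizontal axis with 95% intervals, in red where called higher, blue where called lower and grey where not called. Dotted lines mark a log2 change of 1 in either direction, and transcripts below the filter carry no estimate.

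Adam8 encodes a sheddase of myeloid cells that cuts adhesion molecules such as PSGL-1, the product of Selplg. It lies at chr7:139978932-139992562 on the minus strand (ENSMUSG00000025473, GRCm38). Ang II-treated Plod1-/- mice had 6.89, 39.28, 56.77, 84.81 and 33.92 FPKM, whereas Ang II-treated WT mice had 6.138, 0.8948, 0.9107, 0.9919 and 1.527 FPKM. The groups did not overlap, but the lowest Plod1-/- mouse (replicate 1) and the highest WT mouse (replicate 1) were close to each other and far from the other mice of their groups. The log2 change was 3.74 (SE 0.595, adjusted p = 0.0025, limma), and it was 4.28 without Ang II-treated Plod1-/- replicate 1. Saline-treated WT mice had 1.453, 2.662, 0.8902, 2.045 and 1.775 FPKM and saline-treated Plod1-/- mice had 0.7262, 1.074, 0.6733, 0.5895 and 0.8076 FPKM. Ang II raised Adam8 in Plod1-/- mice by 4.32 on the log2 scale (SE 0.517, adjusted p = 0.000151), the largest change of the 10 transcripts in any comparison between groups. In WT mice the log2 change with Ang II was -0.03 with a 95% interval from -0.777 to 0.721, and the responses differed between the genotypes (log2 difference 4.35, SE 0.656, adjusted p = 0.000141). Under saline Adam8 was below the fold threshold (log2 change -0.61, adjusted p = 0.0472).

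Between the Ang II-treated genotypes the macrophage and neutrophil markers moved with Adam8. All 10 macrophage markers were higher in Plod1-/- than in WT mice under Ang II, and their sum was 1081 to 5739 FPKM against 366.7 to 2142 FPKM. Of 8 neutrophil markers, 5 of the 6 tested were higher, with sums of 157.2 to 726.5 against 7.075 to 214.8 FPKM. With Ang II in Plod1-/- mice all 10 macrophage and all 5 tested neutrophil markers were higher, as Adam8 was. In WT mice with Ang II, 8 of 9 tested macrophage markers had a positive log2 change (median 0.861) and 1 (Lyz2) was called. Adam8 there had a log2 change of -0.03. Ang II-treated Plod1-/- replicate 1, lowest in Adam8, was also lowest in both sums of its group, and Ang II-treated WT replicate 1, highest in Adam8, had the highest sums of its group (2142 and 214.8 FPKM). No macrophage or neutrophil marker was at 0 in all mice of any group, and the part of these cells in the level of Adam8 was not tested.

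Adam12, or meltrin alpha, cuts insulin-like growth factor binding proteins and the precursor of HB-EGF, and is known from regenerating muscle and activated stroma. It lies at chr7:133883199-134232146 on the minus strand (ENSMUSG00000054555). In saline-treated WT mice it measured 0.08227, 0.1818, 0.5056, 0.1548 and 0.519 FPKM, and in saline-treated Plod1-/- mice 0.5143, 1.436, 0.1729, 0.189 and 0.1147 FPKM. Ang II-treated WT mice had 3.417, 3.385, 2.855, 0.4648 and 2.27 FPKM and Ang II-treated Plod1-/- mice had 4.008, 6.507, 7.495, 10.04 and 15.62 FPKM. Every Ang II-treated Plod1-/- mouse exceeded all other mice of the study. Ang II-treated WT replicate 4 remained within the range of the saline-treated WT mice. Between the Ang II-treated genotypes the log2 change was 1.47 (SE 0.364, adjusted p = 0.0135), and Ang II raised Adam12 in Plod1-/- mice by 2.66 (SE 0.317, adjusted p = 0.000148), where it passed the filter through the Ang II-treated mice. The transcript was below the filter in the comparison of Ang II with saline in WT mice, where the difference was 1.34 on the log2 scale (exact permutation test, two-sided unadjusted p = 0.0238). Under saline the log2 difference between the genotypes was 0.15 (exact permutation test, two-sided unadjusted p = 0.54). The interaction for Adam12 was 1.32 (SE 0.444, adjusted p = 0.0258), and it was not called with a pseudocount of 0.1 (adjusted p = 0.137), with no filter (adjusted p = 0.0675) or after quantile normalization (adjusted p = 0.0507).

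Adam19, or meltrin beta, sheds neuregulin and takes part in the formation of the heart valves and septum. It lies at chr11:46055992-46147343 on the plus strand (ENSMUSG00000011256). In the Plod1-/- mice given Ang II it was 5.67, 6.562, 10.21, 15.53 and 15.67 FPKM, and in WT mice given Ang II it was 2.283, 1.281, 2.002, 2.258 and 1.826 FPKM. Values in the saline-treated groups were 1.92, 2.229, 3.414, 2.906 and 3.641 FPKM in WT and 3.077, 2.059, 1.889, 2.542 and 3.194 FPKM in Plod1-/- mice. The lowest Ang II-treated Plod1-/- mouse was above the highest mouse of the other 3 groups. Adam19 rose by 1.91 between the Ang II-treated genotypes (SE 0.264, adjusted p = 0.00155) and by 1.64 with Ang II in Plod1-/- mice (SE 0.266, adjusted p = 0.000796). In WT mice its log2 change with Ang II was -0.37 (95% interval -0.714 to -0.0329, adjusted p = 0.0755), and the interaction was 2.01 (SE 0.318, adjusted p = 0.000198). Fibroblast markers also shifted in Ang II-treated Plod1-/- mice, in which the sum of 7 markers was 1072, 1207, 1933, 2560 and 5738 FPKM in replicates 1 to 5, and 2 of 7 (Col1a1 and Col3a1) were higher and 1 (Pi16) lower than in Ang II-treated WT mice. Their part in Adam12 and Adam19 was not tested.

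Adam15, or metargidin, is an ADAM with adhesive functions in endothelial and smooth muscle cells, and lies at chr3:89338542-89349996 on the minus strand (ENSMUSG00000028041). It stayed between 17.91 and 36.96 FPKM in all 20 mice. Values were 19.25, 24.7, 24.97, 30.21 and 19.37 FPKM in saline-treated WT, 29.46, 30.73, 22.48, 19.51 and 27.86 FPKM in Ang II-treated WT, 21.26, 31.63, 36.19, 34.28 and 26.63 FPKM in saline-treated Plod1-/- and 17.91, 35.99, 36.96, 32.55 and 29.44 FPKM in Ang II-treated Plod1-/- mice. All 4 groups overlapped, and no change was called. The log2 change between the Ang II-treated genotypes was 0.20 with a 95% interval from -0.254 to 0.659, and with Ang II in Plod1-/- mice it was 0.01 with an interval from -0.453 to 0.471, so that a change of 1 lies outside both intervals.

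Adam33, at chr2:131050591-131063814 on the minus strand (ENSMUSG00000027318), is expressed by smooth muscle cells and fibroblasts and is known as an asthma susceptibility gene. It measured 26.65, 25.25, 29.14, 17.89 and 26.25 FPKM in saline-treated WT and 27.24, 25.89, 19.91, 31.79 and 38.11 FPKM in saline-treated Plod1-/- mice. With Ang II it measured 9.21, 11.17, 15.56, 30.92 and 12.69 FPKM in WT and 11.03, 8.444, 5.624, 4.959 and 4.458 FPKM in Plod1-/- mice. In Plod1-/- mice all Ang II-treated values were below all saline-treated values, whereas in WT mice a single Ang II-treated mouse, replicate 4, had more Adam33 than every saline-treated mouse. Adam33 fell by 1.94 with Ang II in Plod1-/- mice (SE 0.238, adjusted p = 0.000172) and had a log2 change of -0.73 in WT mice (95% interval -1.31 to -0.143, adjusted p = 0.0501). It was lower in Ang II-treated Plod1-/- than in Ang II-treated WT mice (log2 change -1.04, SE 0.316, adjusted p = 0.0297). That call was lost when any of Ang II-treated WT replicates 3, 4 or 5 or Ang II-treated Plod1-/- replicates 3, 4 or 5 was left out (log2 change from -1.09 to -0.78, adjusted p from 0.035 to 0.0739). The interaction was -1.21 (SE 0.378, adjusted p = 0.0177), and -0.95 without Ang II-treated WT replicate 4, below the fold threshold.

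Smooth muscle markers moved with Adam33. Their sum was 14150 to 20490 FPKM in saline-treated WT, 15080 to 20760 FPKM in saline-treated Plod1-/-, 5532 to 17070 FPKM in Ang II-treated WT and 2327 to 16990 FPKM in Ang II-treated Plod1-/- mice, and 6 of 8 markers fell with Ang II in Plod1-/- mice. Ang II-treated WT replicate 4 had both the most Adam33 and the highest marker sum of its group (17070 FPKM). Ang II-treated Plod1-/- replicate 1 had a sum within the range of the saline-treated mice (16990 FPKM) and 11.03 FPKM of Adam33, where the lowest saline-treated mouse had 17.89 FPKM. The part of these cells in the level of Adam33 was not tested.

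**Figure D3:**
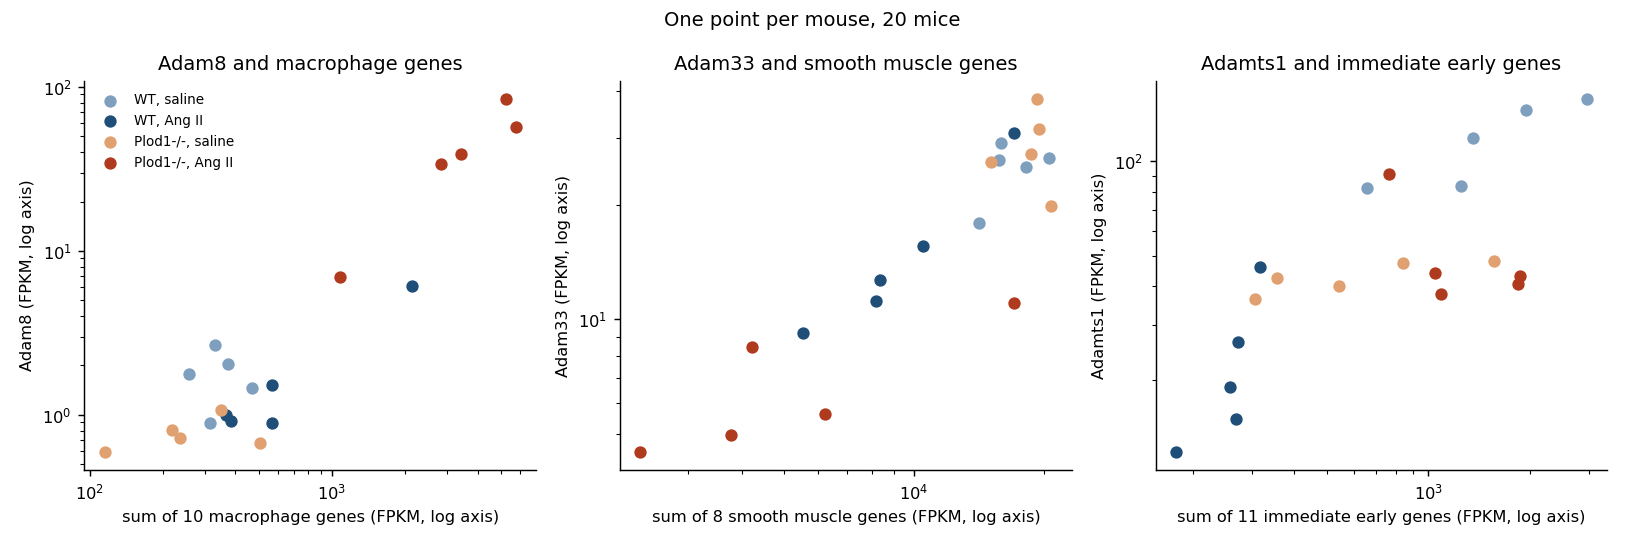
Level of Adam8, Adam33 and Adamts1 (vertical axes, FPKM, log scale) against the summed level of macrophage markers, smooth muscle markers and immediate early genes (horizontal axes, FPKM, log scale), with a point for each of 20 mice coloured by group. Ang II-treated WT replicate 1 lies with the Plod1-/- mouse of 6.89 FPKM in Adam8, Ang II-treated Plod1-/- replicate 1 lies at 11.03 FPKM of Adam33 and a smooth muscle sum of 16990 FPKM, and Ang II-treated WT mice have sums of immediate early genes of 178.6 to 316.8 FPKM, which overlap those of saline-treated Plod1-/- mice.

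Adam11, at chr11:102761439-102780262 on the plus strand (ENSMUSG00000020926), lacks the residues needed for catalysis and is known from nerve cells, where it positions potassium channels. Saline-treated Plod1-/- mice had 11.89, 16.62, 14.49, 18.58 and 11.47 FPKM, and Ang II-treated Plod1-/- mice had 1.635, 4.766, 2.858, 5.225 and 5.724 FPKM. The WT values were 5.223, 10.45, 5.196, 14.22 and 7.619 FPKM under saline and 4.236, 6.094, 6.361, 7.746 and 5.596 FPKM under Ang II. In Plod1-/- mice the treated and untreated values were separated by a wide gap, while the WT groups overlapped. Adam11 fell by 1.69 with Ang II in Plod1-/- mice (SE 0.255, adjusted p = 0.000528), and its log2 change in WT mice was -0.38 (95% interval -0.914 to 0.163). The responses differed (interaction -1.31, SE 0.373, adjusted p = 0.0105), although neither the difference between the Ang II-treated genotypes (log2 change -0.54, adjusted p = 0.13) nor that between the saline-treated genotypes (0.78, adjusted p = 0.0781) was called. Nerve markers moved the other way, with sums of 14.62 to 244.4 FPKM in Ang II-treated Plod1-/- and 4.4 to 7.637 FPKM in saline-treated Plod1-/- mice, and 3 of the 5 tested (Sox10, Stmn2 and Tubb3) were higher.

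Adamts1, at chr16:85793827-85803113 on the minus strand (ENSMUSG00000022893), encodes a secreted protease that cuts versican and aggrecan and is known as an early response gene of inflammation. Its level was 158.6, 119, 83.34, 146.3 and 82.26 FPKM in saline-treated WT and 26.37, 14.97, 19.07, 45.8 and 11.74 FPKM in WT mice given Ang II. The Plod1-/- mice had 42.4, 36.23, 39.92, 47.86 and 47.19 FPKM under saline and 91.13, 40.5, 43.08, 43.82 and 37.58 FPKM under Ang II. Saline-treated WT mice were thus above saline-treated Plod1-/- mice and above WT mice given Ang II, without overlap. In WT mice Adamts1 fell by 2.38 with Ang II (SE 0.328, adjusted p = 0.00181), and it was lower by genotype under saline (log2 change -1.40, SE 0.188, adjusted p = 0.0058), the single member called between the saline-treated groups. Within Plod1-/- mice the log2 change with Ang II was 0.18 (95% interval -0.306 to 0.668), and -0.04 without Ang II-treated replicate 1, the mouse with 91.13 FPKM. Under Ang II it was higher in Plod1-/- than in WT mice (log2 change 1.16, SE 0.352, adjusted p = 0.0296). That call was lost when any of Ang II-treated WT replicates 2, 3 or 5 or Ang II-treated Plod1-/- replicates 1, 3 or 4 was left out (log2 change from 0.93 to 1.20, adjusted p from 0.0443 to 0.0742). The interaction of 2.56 (SE 0.421, adjusted p = 0.000257) stayed called when each of the 20 mice was left out in turn.

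Of the immediate early genes, which respond within minutes to stimuli that include tissue handling, those called moved in the direction of Adamts1 in the 3 comparisons between groups in which Adamts1 was called. The sum of 11 such genes was 658.7 to 2952 FPKM in saline-treated WT, 178.6 to 316.8 FPKM in Ang II-treated WT, 306.7 to 1564 FPKM in saline-treated Plod1-/- and 765.5 to 1872 FPKM in Ang II-treated Plod1-/- mice. Of the 11, 9 were lower with Ang II in WT mice, 11 were higher in Ang II-treated Plod1-/- than in Ang II-treated WT mice, and 1 (Fosb) was lower in saline-treated Plod1-/- than in saline-treated WT mice. With Ang II in Plod1-/- mice, 4 of the 11 (Egr2, Fos, Fosb and Ier3) were higher, with a median log2 change of 0.998, where that of Adamts1 was 0.18 and was not called. The mean of Fos was 223.4 FPKM in saline-treated WT mice and 5.64 FPKM in Ang II-treated WT mice. Ang II-treated Plod1-/- replicate 1, with the most Adamts1 of its group (91.13 FPKM), had the lowest sum of its group (765.5 FPKM). The part of handling in these levels was not tested.

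Adamts4 encodes a main aggrecanase of cartilage, induced by inflammatory cytokines. It lies at chr1:171250421-171260637 on the plus strand (ENSMUSG00000006403). Part of its exons lies opposite transcripts of the other strand, which these libraries do not tell apart, so its values are uncertain. For Adamts4, Plod1-/- mice given Ang II had 0.7035, 5.163, 4.622, 8.674 and 10.03 FPKM and Ang II-treated WT mice had 1.577, 0.1549, 0.2794, 0.2319 and 0.2945 FPKM. As for Adam8, replicate 1 was the lowest mouse of the one group and the highest of the other, and here the groups overlapped. The macrophage and neutrophil sums given for Adam8 were likewise lowest and highest of their groups in these mice. Among the other Ang II-treated Plod1-/- mice the order differed. Replicate 5, highest in Adamts4, had a macrophage sum of 2828 FPKM, and replicate 3, at 4.622 FPKM of Adamts4, had a macrophage sum of 5739 FPKM. The part of these cells in the level of Adamts4 was not tested. The saline-treated groups had 0.3617, 0.3074, 0.2912, 0.2938 and 0.2526 FPKM in WT and 0.1532, 0.161, 0.1108, 0.1968 and 0.1557 FPKM in Plod1-/- mice. Between the Ang II-treated genotypes Adamts4 was 4.01-fold higher on the FPKM + 1 scale (SE of the log2 change 0.453, adjusted p = 0.00953), and the log2 change was 2.44 without Ang II-treated Plod1-/- replicate 1. Only 5 of these mice reached 1 FPKM, Ang II-treated WT replicate 1 and Plod1-/- replicates 2 to 5, so that without any of these 5 Adamts4 was below the filter and was not tested, while it was called in each of the 5 fits without another mouse. The interaction was 2.17 (SE 0.488, adjusted p = 0.00253). In the other 3 comparisons the transcript was below the filter and was compared by exact permutation tests, two-sided and unadjusted. The exact permutation tests gave a log2 difference of 2.32 with Ang II in Plod1-/- mice (p = 0.00794, the smallest p that 5 against 5 allows), 0.14 with Ang II in WT mice (p = 0.944) and -0.17 between the saline-treated genotypes (p = 0.00794), the last between levels that were all below 0.362 FPKM.

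Adamts5, the other main aggrecanase and a versican-cleaving enzyme of the aortic wall, lies at chr16:85856173-85901828 on the minus strand (ENSMUSG00000022894), 53059 bases from Adamts1. Its values were 6.253, 7.204, 6.962, 8.008 and 5.019 FPKM in saline-treated WT, 6.655, 3.88, 4.675, 6.625 and 3.526 FPKM in Ang II-treated WT, 6.14, 6.991, 5.968, 8.462 and 8.69 FPKM in saline-treated Plod1-/- and 6.141, 4.729, 4.639, 7.265 and 6.711 FPKM in Ang II-treated Plod1-/- mice. The groups overlapped throughout and no change was called. The log2 change between the Ang II-treated genotypes was 0.20 (95% interval -0.211 to 0.613), and with Ang II it was -0.36 in WT mice (-0.745 to 0.0197) and -0.26 in Plod1-/- mice (-0.584 to 0.0596).

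Adamts8, at chr9:30942562-30963838 on the plus strand (ENSMUSG00000031994), encodes a protease with antiangiogenic activity. It measured 12.81, 11.51, 9.733, 6.442 and 9.219 FPKM in saline-treated WT and 4.143, 3.299, 4.295, 7.857 and 5.377 FPKM in Ang II-treated WT mice. The Plod1-/- values were 7.621, 9.386, 7.24, 14.09 and 18.2 FPKM under saline and 12.42, 1.775, 3.602, 2.436 and 2.491 FPKM under Ang II. In Plod1-/- mice 4 of 5 Ang II-treated values lay below every saline-treated value, and replicate 1 was within the saline range. Adamts8 fell by 1.34 with Ang II in Plod1-/- mice (SE 0.412, adjusted p = 0.0231), and by 1.73 without that replicate. The call was lost when any of saline-treated Plod1-/- replicates 4 or 5 or Ang II-treated Plod1-/- replicates 2, 4 or 5 was left out (log2 change from -1.25 to -1.16, adjusted p from 0.0514 to 0.0579). In WT mice the log2 change was -0.88 (SE 0.21, adjusted p = 0.00996), below the fold threshold, and it passed that threshold without saline-treated WT replicate 4 (-1.01) or Ang II-treated WT replicate 4 (-1.03). No difference in response was called (interaction -0.46, 95% interval -1.47 to 0.557), and the genotypes did not differ at the threshold under Ang II (log2 change -0.34, 95% interval -1.19 to 0.511). Without Ang II-treated Plod1-/- replicate 1, the latter log2 change was -0.72 (adjusted p = 0.026), below the fold threshold. That mouse and Ang II-treated WT replicate 4, highest in Adamts8 of their groups, also had the highest smooth muscle marker sums (16990 and 17070 FPKM). Saline-treated Plod1-/- replicate 3 had the highest sum of its group (20760 FPKM) and the least Adamts8 (7.24 FPKM). The part of these cells in the level of Adamts8 was not tested.

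Markers of other tissues moved in these comparisons too. Between the Ang II-treated genotypes 2 of 8 smooth muscle (Lmod1 and Smtn), 2 of 8 adipocyte (Cidea and Ucp1) and 2 of 4 tested skeletal muscle markers (Acta1 and Mylpf) were lower in Plod1-/- mice, and 2 of 5 tested nerve markers (Stmn2 and Tubb3) were higher. In WT mice 7 of 7 tested adipocyte markers were higher with Ang II, with a sum of 895.7 to 5142 FPKM against 91.81 to 531.5 FPKM, and so were 3 of 4 tested skeletal muscle markers (2.711 to 287.8 against 3.639 to 6.401 FPKM), in the comparison in which Adamts1 fell. All 5 red blood cell markers were higher in Plod1-/- than in WT mice under Ang II, with sums of 763.3 to 9716 against 184.6 to 665.6 FPKM. None of 6 endothelial markers and not the 1 tested lymphocyte marker was called between these genotypes, nor had any an unadjusted p below 0.05 in limma. Of the 6 endothelial markers, 3 (Cdh5, Emcn and Kdr) were higher with Ang II in each genotype. The part of these tissues in the levels of the 10 genes was not tested.

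Many other genes of both families were low in the aorta. Of 26 other ADAM genes listed, 20 stayed below 1 FPKM in every mouse, and of 15 other ADAMTS genes 7 did. None of the 3 other ADAM genes tested (Adam9, Adam10 and Adam17) and none of the 6 other ADAMTS genes tested was called between the Ang II-treated genotypes, although 2 of the former and 2 of the latter had an adjusted p below 0.05 in limma and 3 of each had an unadjusted p below 0.05. Adam9 had means of 39.25 ± 8.526 and 21.09 ± 10.4 FPKM in Ang II-treated Plod1-/- and WT mice (log2 change 0.96, adjusted p = 0.0265), and its responses to Ang II differed between genotypes (interaction 1.06, SE 0.314, adjusted p = 0.0137). Adam10, the main sheddase of Notch, had 14.18 ± 5.089 and 6.925 ± 1.964 FPKM (log2 change 0.89, adjusted p = 0.0346), and Adam17, the TNF convertase, had 7.921 ± 3.268 and 4.224 ± 1.327 FPKM (0.70, adjusted p = 0.1). Of the other ADAMTS genes, Adamts10 and Adamts2, which act on fibrillin and on procollagen, had the highest levels, at 45.73 ± 5.326 and 21.79 ± 4.323 FPKM in saline-treated WT mice. Adamts2 had an adjusted p of 0.0319 for a log2 change of 0.66, and Adamts9 0.0235 for 0.47. In WT mice Adamts15 fell with Ang II by 1.25 (SE 0.409, adjusted p = 0.0334). None of 5 tested ADAMTS-like genes, which encode matrix proteins without a protease domain, was called between the Ang II-treated genotypes (1 at an unadjusted p below 0.05 in limma), and Adamtsl5 had an interaction of -1.16 (SE 0.366, adjusted p = 0.0189). Adam10, Adam17, Adamts2, Adamts9 and Adamts15 were named after their values were seen.

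**Figure D4:**
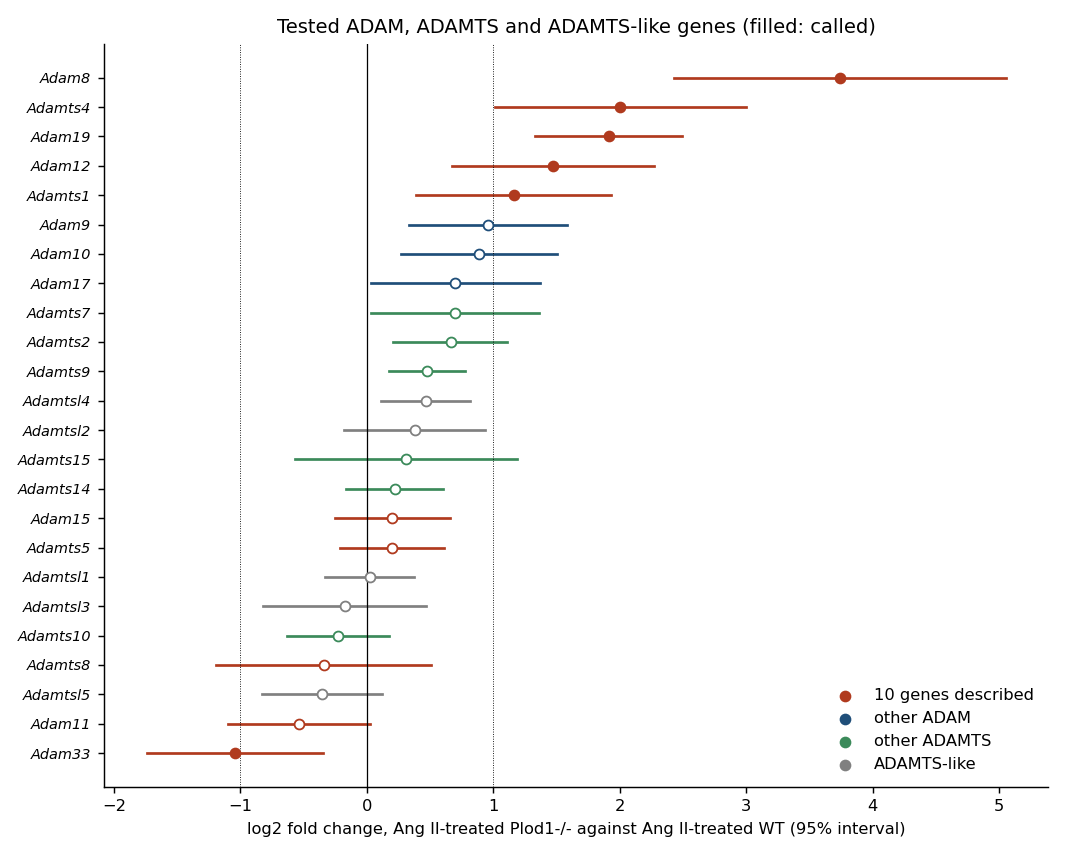
log2 fold change of Plod1-/- against WT mice under Ang II (horizontal axis, with 95% intervals) for the tested ADAM, ADAMTS and ADAMTS-like genes (vertical axis), coloured by group of genes and filled where called. The 6 called genes are all among the 10 described, from 3.74 for Adam8 to -1.04 for Adam33, and Adam9 (0.96) is the highest of the genes outside them. The 10 were chosen with earlier results of these data known, so this split tests nothing.

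Of the genes that restrain, activate or clear these proteases, 16 of 19 were tested. Between the Ang II-treated genotypes 1 was higher and 2 were lower, where 7.45% of all tested genes were higher and 3.67% lower. Timp1, a secreted inhibitor of metalloproteases, rose by 3.27 (SE 0.609, adjusted p = 0.00468), from 100.8 ± 135.1 FPKM in Ang II-treated WT to 636 ± 231.7 FPKM in Ang II-treated Plod1-/- mice. Timp4, another inhibitor of the same family, fell by 1.63 (adjusted p = 0.0089), and Pcsk6, a proprotein convertase, fell by 1.48 (adjusted p = 0.00401). Timp3, the inhibitor with the broadest action on ADAM and ADAMTS enzymes, was not called (17.28 ± 8.479 and 18.56 ± 8.438 FPKM in Ang II-treated WT and Plod1-/- mice), but had fallen with Ang II in WT mice by 1.08 (adjusted p = 0.0152), and was named after its values were seen. The median log2 change of the 16 was 0.0428, beside 0.117 over all tested genes.

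Among 15 matrix substrates and partners, 3 of 11 tested were higher and 2 lower between the Ang II-treated genotypes, with a median log2 change of 0.303. Over all tested genes 7.45% were higher and 3.67% lower, with a median of 0.117. Fbln2, a fibulin that is cut by ADAMTS enzymes, rose by 1.93 (adjusted p = 0.00403), Nid2, a basement membrane nidogen, by 1.31 (adjusted p = 0.0212), and Tfpi2, a protease inhibitor bound to matrix, by 1.98 (adjusted p = 0.0014). Tfpi2 passed the filter mainly through the group in which it was higher, with means of 5.426 FPKM in Ang II-treated Plod1-/- and 0.5484 FPKM in Ang II-treated WT mice. Fbln1, a cofactor of ADAMTS1, fell by 1.29 (adjusted p = 0.00196), and Comp, a cartilage and arterial matrix protein, fell by 1.05 (adjusted p = 0.0309). Fbln1 was also lower by genotype under saline (log2 change -1.26, adjusted p = 0.02), as Adamts1 was. Versican itself (Vcan) was not called, with 7.225 ± 4.311 FPKM in Ang II-treated WT and 8.799 ± 3.816 FPKM in Ang II-treated Plod1-/- mice; it was named after its values were seen.

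Of 29 membrane proteins known to be shed, 25 were tested, 8 were higher and none was lower between the Ang II-treated genotypes, with a median log2 change of 0.344. Over all 12356 genes tested there, 7.45% were higher and 3.67% lower, with a median of 0.117. The decoy receptor Il1r2 rose by 3.83 (adjusted p = 0.00111), the hyaluronan receptor Cd44 by 2.50 (adjusted p = 0.000432) and the TNF receptor Tnfrsf1b by 1.97 (adjusted p = 0.00452). The adhesion molecule Selplg, a substrate of ADAM8, rose by 2.23 (adjusted p = 0.00976). Cxcl16 (1.68), Chl1 (1.08) and Il6ra (1.01) were also called. Il1r2 and Chl1 passed the filter mainly through the group in which they were higher. Their means were 27.66 and 2.168 FPKM in Ang II-treated Plod1-/- mice and 1.265 and 0.4136 FPKM in Ang II-treated WT mice. Il1r2, Selplg and Il6ra are expressed mainly by leukocytes, and they rose beside the macrophage and neutrophil markers given above. Transcript levels do not measure how much of a protein was shed.

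Mouse-to-mouse likeness was described by Pearson's r of deviations from the group means of log2(FPKM + 1) over the 20 mice, among 11971 genes. All points share their library, so r also holds what a library adds to every gene. Adam8 was most like Il17ra (0.95), Lgmn (0.948) and Dtx4 (0.946), and Adamts4 most like Scamp5 (0.937), Zfp217 (0.935) and Jak1 (0.933). For Adam33 the nearest were AI838599 (0.955) and 2010111I01Rik (0.946), and for Adamts8 Camkk1 (0.916), Tnc (0.897) and P2rx1 (0.882). Adam12 was nearest to 4931406C07Rik (0.926), Ghitm (0.921) and Snx10 (0.913), and Adam19 to Sv2a (0.906), Epb41l3 (0.889) and Gpatch2 (0.885). Adamts1 was nearest to Gng12 (0.862), Klf6 (0.858) and Slc7a1 (0.855), and Adamts5 to Fndc3b (0.848), Zc3h7a (0.839) and Plpp5 (0.812). The genes nearest to Adam15 were Vps51 (0.913), Fkbp8 (0.907) and Pias4 (0.898), and those nearest to Adam11 were Zfp746 (0.83), Prrc2a (0.817) and Zfp628 (0.789). Between members, Adam8 and Adamts4 were the most alike pair (0.843), followed by Adam33 and Adamts8 (0.689), while Adam12 ran opposite to Adam33 (-0.727) and to Adamts1 (-0.707).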

How the data were processed

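RNA from the abdominal aortas of 20 mice was made into TruSeq libraries, which do not mark strand, and sequenced on an Illumina platform. Reads of ribosomal RNA were taken out by the authors, who then used HISAT2 for alignment and ran stringtie, cuffquant and cuffnorm at default parameters, so the deposited FPKM values are scaled between libraries by cuffnorm. The submitters' processing notes also name HISAT2 2.1.0, Bowtie2 2.2.3, HTSeq 0.6.0 and mm10. The read total of each library was not given with the FPKM values, so no counting interval is printed. Group and replicate were taken from the sample labels.

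Gene symbols and positions came from GENCODE M21 (GRCm38), which held 43226 of the 43422 genes. limma 3.58.1 with a trended prior (R 4.3.3, data.table version 1.17.8) was fitted on log2(FPKM + 1) over all genes with at least 1 FPKM in at least 5 mice of the comparison, with the 2 groups compared in a fit and all 4 in the interaction. P-values were adjusted by Benjamini and Hochberg over all genes tested, and a call needed an adjusted p below 0.05 and a log2 change above 1 in size. Transcripts below the filter were compared by two-sided exact permutation tests. The fit was tested on simulated data. Figures were drawn with Python 3.11.15 and matplotlib 3.10.9. Alternatives were a pseudocount of 0.1, no filter, a replicate block, weights per mouse, quantile normalization, equal sums without mitochondrial genes, a fit of all groups, omission of the libraries with Xist, and omission of each mouse. The 10 genes and all gene lists were chosen with earlier results of these data known. All 10 genes were described in every comparison. From the protease and substrate lists the genes called between the Ang II-treated genotypes or in the interaction were eligible to be named, and otherwise up to 3 of highest level, and for likeness the 3 genes of highest r among those with at least 1 FPKM in at least 10 mice. A few genes that these rules name are not reported here.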

Additional observations from a re-analysis of the deposited data

Results flagged for a closer look

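In 4 of 40 sets of 5 mice (10 genes in 4 groups) a single mouse stood apart from the other 4 by Dixon's test, with a gap over range above 0.71 on log2(FPKM + 1), the scale of all ratios given here, and chance marks about 1 in 20 such sets. Ang II-treated WT replicate 1 had 6.138 FPKM of Adam8 (gap over range 0.783) and 1.577 FPKM of Adamts4 (0.858), in a library whose macrophage marker sum was 2142 FPKM against 366.7 to 564.3 FPKM in the other 4 mice. Ang II-treated WT replicate 4 had 0.4648 FPKM of Adam12 (0.727), in a library with a smooth muscle marker sum of 17070 FPKM and an adipocyte marker sum of 895.7 FPKM, against 3579 to 5142 FPKM of adipocyte markers in the rest of its group. Ang II-treated Plod1-/- replicate 1 had 91.13 FPKM of Adamts1 (0.828), in a library that holds Xist. What set these mice apart was not tested.

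The response to Ang II differed between genotypes, by the interaction term in limma, for 7 genes. The difference in log2 change was 4.35 for Adam8, 2.56 for Adamts1, 2.17 for Adamts4, 2.01 for Adam19 and 1.32 for Adam12, and it was -1.31 for Adam11 and -1.21 for Adam33. For 6 of the 7 (Adam8, Adam11, Adam12, Adam19, Adam33 and Adamts4) the saline-treated and Ang II-treated groups did not overlap in Plod1-/- mice and overlapped in WT mice, and for Adamts1 the reverse was seen. Over all tested genes the groups did not overlap for 29.2% in Plod1-/- mice and for 17.3% in WT mice. The 7 genes were picked by the interaction in these same mice, so this pattern is not separate support for it. For Adam12 the overlap in WT mice came from Ang II-treated replicate 4 alone (0.4648 FPKM).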

How the results depend on the processing

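Of 877 values of the 10 genes under the alternatives, 826 kept their direction and their side of the threshold, 27 kept the direction but were no longer called, 4 became called and 20 changed sign, all 20 in changes that were not called. Adam8, Adam12 and Adam19 between the Ang II-treated genotypes, Adam8, Adam11, Adam12, Adam19 and Adam33 with Ang II in Plod1-/- mice, Adamts1 in WT mice and under saline, and the interactions of Adam8, Adam11, Adam19, Adamts1 and Adamts4 were called under every alternative in which they were tested. The interaction of Adamts4 was not tested without Ang II-treated WT replicate 1 or any of Ang II-treated Plod1-/- replicates 2 to 5. Genes called with Ang II in WT mice went from 1 to 2 with a pseudocount of 0.1 (Adamts8 added) and to 2 with no filter (Adam12 added), and between the saline-treated groups from 1 to 2 with a pseudocount of 0.1 (Adam8 added). With each mouse left out, 3 to 5 genes were called between the Ang II-treated genotypes (3 without Plod1-/- replicates 3 or 4), 1 to 2 with Ang II in WT mice, 5 to 6 in Plod1-/- mice and 6 to 7 in the interaction. With no filter, 4 genes were called between the Ang II-treated genotypes, Adamts1 (adjusted p = 0.0816) and Adam33 (0.0814) being lost.

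Signs changed for Adam8 with Ang II in WT mice (-0.386 to 0.0924 with a mouse left out), Adam15 with Ang II in Plod1-/- mice (-0.0712 with quantile normalization, -0.0683 with equal sums without mitochondrial genes, -0.105 to 0.183 with a mouse left out), Adamts1 in the same comparison (-0.00759 without the libraries with Xist, -0.0445 to 0.269 with a mouse left out), Adamts8 under saline (-0.0605 without the libraries with Xist, -0.0605 to 0.244 with a mouse left out), and for the interactions of Adamts5 (-0.0588 with quantile normalization) and Adam15 (0.0187 without the libraries with Xist, -0.234 to 0.0541 with a mouse left out). The causes were not tested.

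Replicate numbers are shared between the groups. Same-numbered mice deviated together (r over 0.1) in at most 2 of 5 pairs of any comparison. The highest r were 0.421 and 0.372, for replicates 2 and 3 with Ang II against saline in Plod1-/- mice. Whether mice of the same number share more than the number was not tested. With the replicate block, 5 genes were called between the Ang II-treated genotypes (Adam33 lost, adjusted p = 0.08), 5 with Ang II in Plod1-/- mice (Adamts8 lost, adjusted p = 0.0513), 1 in WT mice, 1 under saline and 7 in the interaction. Over all genes, 92 were called under saline, and 149 with a pseudocount of 0.1, 41 with no filter, 57 in a fit of all 4 groups, 60 without the libraries with Xist and 38 to 104 with a mouse left out. Between the Ang II-treated genotypes 1373 were called and 2134 with weights per mouse. Because FPKM values carry no read totals, the counting error of Adamts4 and Adam12, which lay below 1 FPKM in most saline-treated mice, could not be given.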
